A study of Bos taurus with 27 samples.

Results

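The keratin and adhesion genes of the colon epithelium were described in the colon of newborn Holstein calves. They were 8 genes taken by a list of Ensembl identifiers, out of 24616 genes in the count table. EPCAM (ENSBTAG00000006474), CDH1 (ENSBTAG00000015991) and CDH17 (ENSBTAG00000021964) encode adhesion molecules. KRT8 (ENSBTAG00000000836), KRT18 (ENSBTAG00000001517) and KRT19 (ENSBTAG00000004905) encode keratins. VIL1 (ENSBTAG00000018543) encodes a brush border protein and LGALS4 (ENSBTAG00000016312) a lectin. All 8 passed the filter on low counts that left 13943 genes for testing.

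The large intestine is lined by a single layer of epithelial cells that absorb water and ions, secrete mucus and separate the gut contents from the tissue below. Simple epithelia of this kind build their cytoskeleton from pairs of a type II keratin (KRT8) with a type I keratin (KRT18 or KRT19). Neighbouring cells are held together by E-cadherin (CDH1) at the adherens junctions, by LI-cadherin (CDH17), a cadherin of the intestinal epithelium, and by the epithelial cell adhesion molecule EpCAM. Villin (VIL1) bundles actin in the microvilli, and galectin-4 (LGALS4) is a lectin of the digestive tract that binds glycolipids and glycoproteins at the apical membrane.

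Colon RNA was sequenced from 27 newborn male Holsteins killed at 51 h of age, and the reads were counted per gene. The calves received their first colostrum by tube immediately after birth (TRT0), at 6 h (TRT6) or at 12 h (TRT12), with 9 calves in each treatment. Within each treatment, 4 calves were born to primiparous heifers (H) and 5 to multiparous cows (C), which gave the 6 groups TRT0_H, TRT0_C, TRT6_H, TRT6_C, TRT12_H and TRT12_C. Every calf was fed the same milk replacer from 12 h after its colostrum meal, so calves with later colostrum also started it later. The time of the first meal, the time since that meal and the time on milk replacer therefore cannot be told apart. No group went without colostrum, so TRT0 served as the reference. The colostrum was a pasteurized pool. Parity was taken from the sample table of the study, because the labels of the deposited samples give only the treatment. Calf names such as X4168_3_H hold the calf number, the treatment (1 for TRT0, 2 for TRT6, 3 for TRT12) and the parity.

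Total counts were between 1163791 and 4202593 per calf, with a median of 2215402. The library names hold a code that was read here as a run and a lane, although the labels do not name its parts. By this reading 11 calves (here lane 1) and 11 calves (here lane 2) were sequenced in 2 lanes of the same run. The remaining 5 calves (here lane 3) were in a lane of another run, so that lane 3 and its run cannot be told apart. The lanes were unevenly spread over the groups. Lane differences passed the test for 584 of 13943 genes. Ground colon segments were extracted, and the methods name no separation of the layers of the wall. Smooth muscle genes summed to between 7961 and 16062 CPM (the counts of a gene per 1000000 counts of the calf). None of the 351 pairs of libraries agreed within sampling noise.

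The 8 epithelial genes were well expressed in every calf. Their counts ran from 110 for KRT18 in the calf with the fewest to 3345 for CDH17 in the calf with the most. Together they took between 0.281% and 0.495% of all counts, with a median of 0.355%, a 1.76-fold range over the calves. The lowest sum belonged to X4151_2_C of TRT6_C and the highest to X4168_3_H of TRT12_H. In RNA from whole tissue, fewer epithelial cells and less RNA per epithelial cell cannot be told apart. Lengths of the transcripts were not used here, so levels were compared between calves and not between genes.

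Among the adhesion genes, EPCAM averaged 455 ± 84.7 CPM (SD, n = 27) and ran from 294 CPM in X4117_3_H to 687 CPM in X4159_3_C. CDH1 averaged 366 ± 45.6 CPM and ran from 298 to 489.7 CPM. CDH17 averaged 757 ± 150.2 CPM and ran from 501 to 1093 CPM. CDH1, the junctional cadherin, varied least of the 8 genes, with a coefficient of variation (CV, SD over mean) of 12.4%.

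Among the keratins, KRT8 averaged 374 ± 77.8 CPM and ran from 254 to 561 CPM. KRT18, one of its type I partners, averaged 125 ± 29.1 CPM and ran from 78.7 to 179 CPM. KRT19, the other type I keratin, averaged 556 ± 126 CPM and ran from 328 to 812 CPM. By CV the keratins were the most variable of the 8 genes, with 20.8% for KRT8, 22.7% for KRT19 and 23.3% for KRT18. CDH17 followed closely at 19.8%. The order differed in edgeR's estimate of variation within the 6 groups beyond counting error. There KRT19 (0.251) was highest, followed by CDH17 (0.237), KRT8 (0.231), EPCAM (0.224) and KRT18 (0.219).

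VIL1 averaged 373 ± 65.4 CPM and ran from 287 to 516 CPM. LGALS4 averaged 563 ± 74.0 CPM, ran from 459.6 to 766 CPM and had a CV of 13.1%. The median CV over all tested genes was 27.1%, and the counting error alone gave the 8 genes CVs of 2.60% to 6.40%, so most of their spread over calves was larger than counting error. The calf with the highest level held 1.64 times the lowest for CDH1 and 2.48 times for KRT19, and the other 6 genes lay between.

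**Figure D1:**
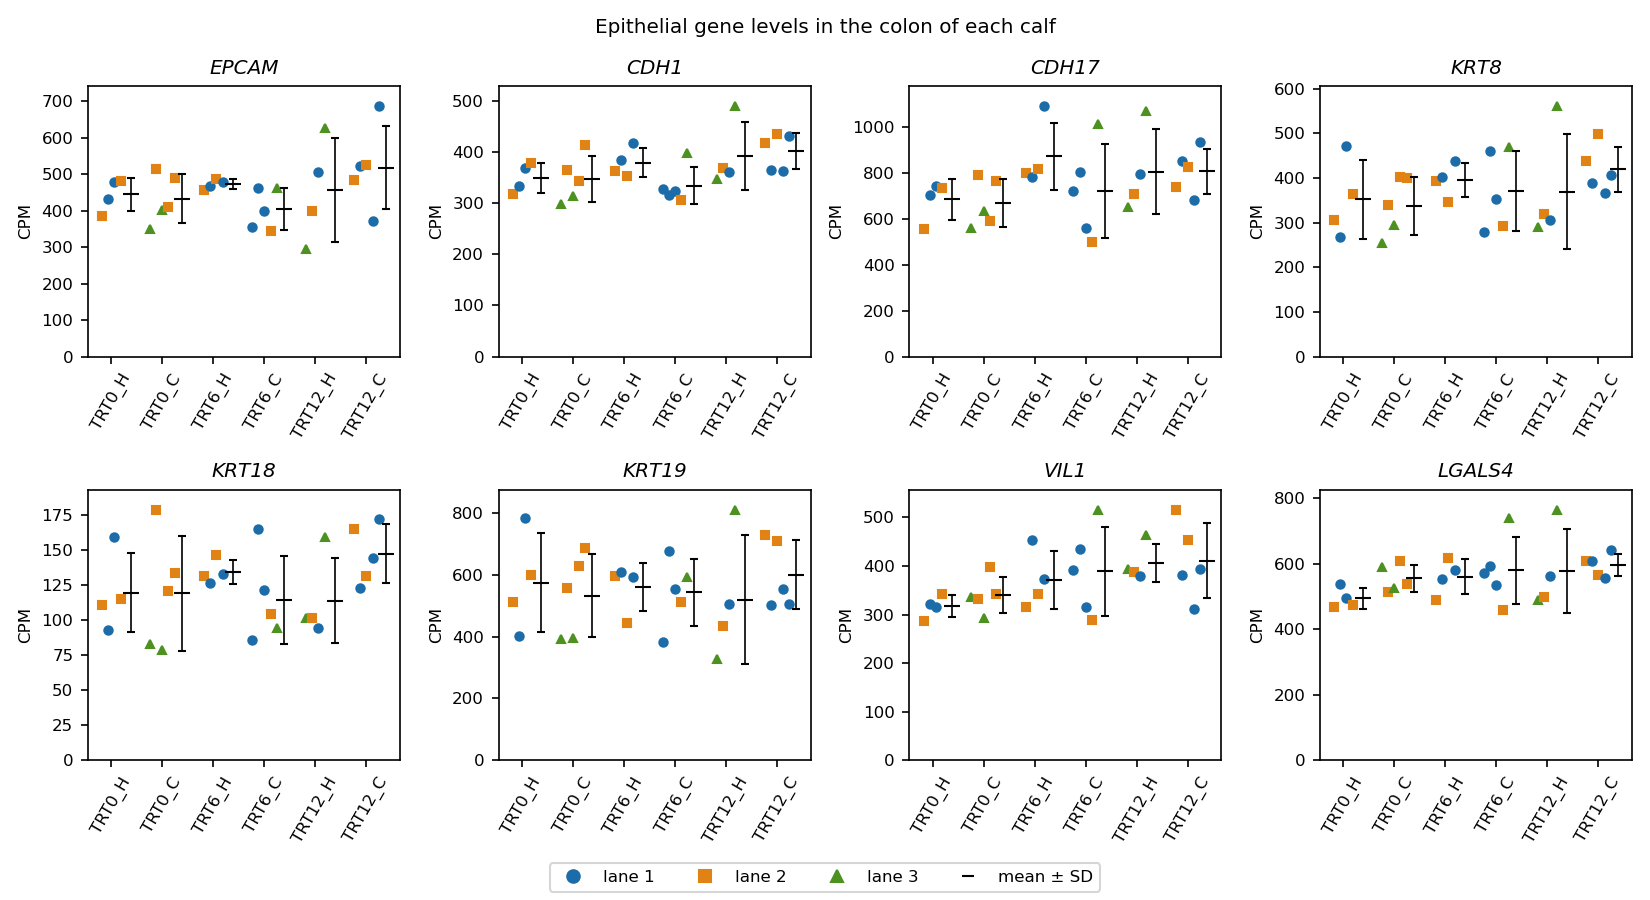
Level of each of the 8 genes (CPM, linear axis from 0) in each calf, by group of treatment and parity, with the symbol and colour giving the sequencing lane; the black bar to the right of each group is its mean ± SD (n = 4 for H groups, n = 5 for C groups). The calves of the 6 groups overlap widely for most genes, and the TRT12_H calf in lane 3 with 561 CPM of KRT8 lies far above the other calves of its group.

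Means of the 6 groups spanned a narrower range than single calves. The highest group mean was 1.15 times the lowest for KRT19 and 1.31 times for CDH17, with the other genes between. TRT12_C had the highest mean of 7 genes, and TRT6_H had the highest mean of CDH17. Arranged by their means, the neighbouring groups differed by less than the larger of their SDs in 5 of 5 steps for EPCAM, KRT8, KRT18, KRT19, VIL1 and CDH17, and in 4 of 5 steps for CDH1 and LGALS4.

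Differences between groups were tested with edgeR's quasi-likelihood test over all 13943 genes, and a gene was called at a Benjamini-Hochberg adjusted p of 0.1 or less with a fold of at least 1.2. None of the 8 genes was called in any of the 13 contrasts of treatment or parity (0 of 8 in each), and 0% of all tested genes were called in each of them. The likelihood ratio test of edgeR also called 0 of 8 in every contrast, beside 0.00441% of all tests. DESeq2 called 1 of 8, VIL1 in TRT12 against TRT0, beside 0.366% of all tested genes (51 genes). It called 0 of 8 in the other 12 contrasts, beside 0.00598% of all tests. The counts at an unadjusted p under 0.05 are given with each contrast.

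The first question was whether the time of the first colostrum meal moved the epithelial genes over both parities together. TRT6 calves were compared with TRT0 calves in a fit with terms for treatment and parity. At an unadjusted p under 0.05 there were 0 of 8 genes, against 3.13% of all tested genes. VIL1 was the lowest, with an unadjusted edgeR p of 0.0546. The count was 2 without X4144_2_C or X4151_2_C. It was 1 without X4114_2_H, X4125_2_H, X4158_3_C or X4164_1_H, and also 1 by DESeq2. The fitted change was above 0 for 8 of 8 genes, with a median log2 fold change of 0.12, while 51.7% of all tested genes lay above 0. The 8 genes rose and fell together over the calves, with a median Pearson r of 0.70 for their 28 pairs. Their signs are therefore not separate results, here or in the other contrasts. CDH17 had the highest estimate at 0.26 ± 0.15 (SE), with a 95% interval of −0.05 to 0.57. The interval of EPCAM, the lowest estimate at 0.02, ran from −0.28 to 0.33. Leaving out X4140_2_C left 5 of 8 genes above 0.

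Between TRT12 and TRT0 the estimates were higher. VIL1, the actin bundler of the microvilli, averaged 409 ± 59.3 CPM in TRT12 and 329.9 ± 32.4 CPM in TRT0 (n = 9 each). CDH1, E-cadherin, averaged 397 ± 47.8 CPM in TRT12 and 348 ± 36.4 CPM in TRT0. These were 2 of 8 genes with an unadjusted p under 0.05, against 9.37% of all tested genes. The count was 5 without X4117_3_H. It was 1, VIL1 alone, without any 1 of X4108_1_C, X4124_1_H, X4143_1_C, X4126_3_C, X4145_3_C, X4147_3_C, X4159_3_C or X4168_3_H, and also with lane as a term, where the unadjusted p of CDH1 in the edgeR fit was 0.0547.

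The log2 fold change of VIL1 was 0.34 ± 0.13 (SE), a 1.27-fold higher estimate with a 95% interval of 0.09 to 0.60, and its edgeR adjusted p was 0.434. For CDH1 it was 0.23 ± 0.10 with a 95% interval of 0.02 to 0.44, and its edgeR adjusted p was 0.505. Neither passed the adjusted threshold in edgeR. The change was above 0 for 8 of 8 genes with a median of 0.22, beside 49.3% of all tested genes and a median of −0.004. These signs come from genes that vary together and are not separate results. Without X4168_3_H, the calf with the highest sum, 7 of 8 genes lay above 0 and the median was 0.16.

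The other 6 genes had intervals that reached below 0 in the same contrast. CDH17 was at 0.29 (95% interval −0.01 to 0.60) and KRT8 at 0.25 (−0.06 to 0.55). EPCAM was at 0.21 (−0.09 to 0.51), KRT18 at 0.19 (−0.13 to 0.51) and LGALS4 at 0.19 (−0.04 to 0.42). KRT19 had the lowest estimate at 0.08 (−0.26 to 0.41). The intervals of all 6 genes held 0 as well as their estimates.

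**Figure D2:**
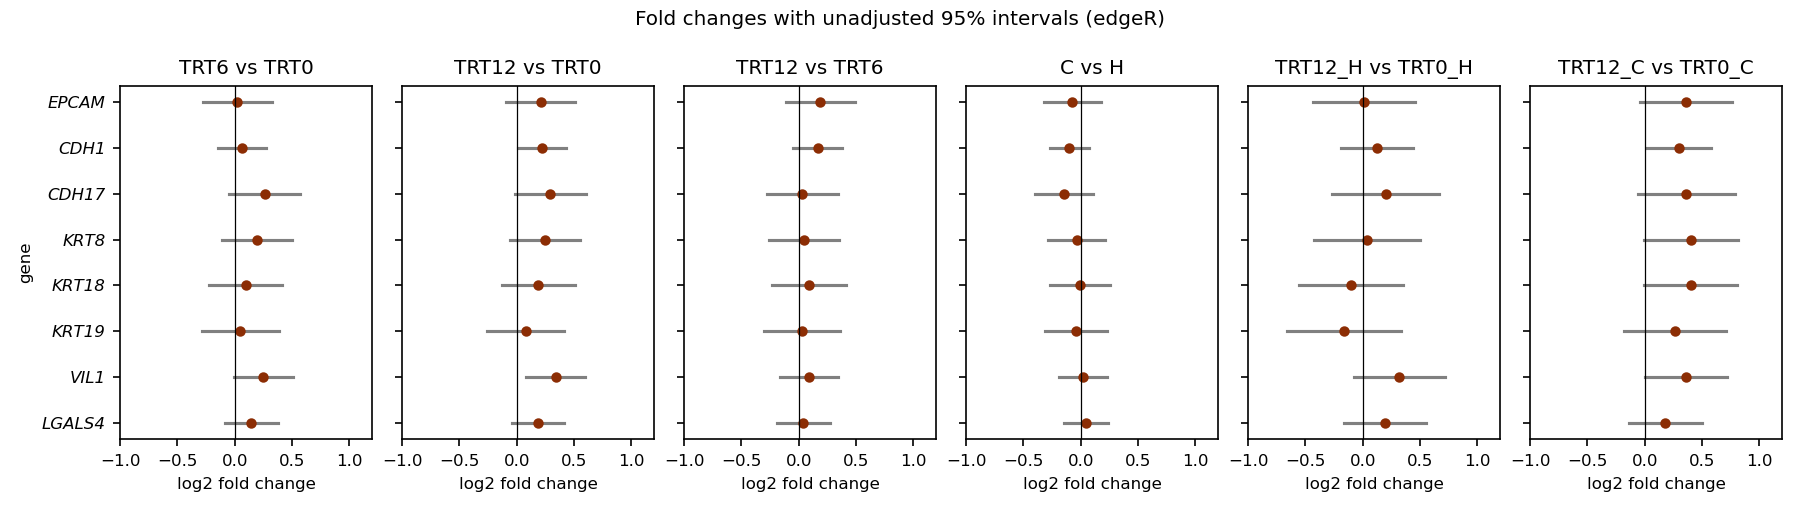
Fitted log2 fold change (point) and unadjusted 95% interval (line) of each gene in 6 contrasts by edgeR; the vertical line marks no change and positive values are higher in the first group named. The points of TRT12 vs TRT0 all lie above 0 and only the intervals of VIL1 and CDH1 stay above it, whereas the points of C vs H lie on both sides.

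Values by calf show how far the treatments overlapped for VIL1. The TRT0_H calves held 287, 322, 316.5 and 342 CPM, and the TRT0_C calves 336, 333, 293, 397 and 343 CPM. The TRT6_H calves held 315, 454, 343 and 373 CPM, and the TRT6_C calves 392, 434, 315, 288 and 516 CPM. The TRT12_H calves held 393, 388, 379 and 465 CPM, and the TRT12_C calves 515, 382, 453, 312 and 394 CPM. Of all treatments TRT0 had the narrowest range, whereas the TRT6_C calves covered nearly the whole range of the study. The pooled TRT12 and TRT0 calves overlapped, because 1 TRT12_C calf lay at 312 CPM and 1 TRT0_C calf at 397 CPM.

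CDH1 was distributed in another way. The TRT0_H calves held 318, 333, 369 and 378.5 CPM, and the TRT0_C calves 298, 364, 315, 344 and 413 CPM. The TRT6_H calves held 363, 383, 353 and 416.5 CPM, and the TRT6_C calves 327.5, 316, 324.5, 306 and 397 CPM. The TRT12_H calves held 347, 368, 361 and 489.7 CPM, and the TRT12_C calves 417, 365, 435, 363 and 430.3 CPM. The TRT12 calves started at 347 CPM, above the lower part of TRT0 and of TRT6_C, and overlapped with the upper part of both.

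The lanes were unevenly spread over the treatments, so VIL1 and CDH1 were also compared within lanes. VIL1 averaged 367 CPM in 4 TRT12 calves and 319.2 CPM in 2 TRT0 calves of lane 1, 452 against 340.3 CPM in lane 2 (3 and 5 calves), and 429 against 315 CPM in lane 3 (2 and 2 calves). CDH1 averaged 380.0 against 351 CPM in lane 1, 407 against 363 CPM in lane 2 and 418 against 306.5 CPM in lane 3. TRT12 had the higher mean in every lane for both genes. Both genes were picked for their unadjusted p in this contrast, and the calves are the same. The means by lane are therefore a description and not a second test. With lane as a term in the edgeR fit the log2 fold changes were 0.33 for VIL1 and 0.21 for CDH1, with adjusted p of 0.431 and 0.518.

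No gene passed the test between TRT12 and TRT6. At an unadjusted p under 0.05 there were 0 of 8 genes, against 3.14% of all tested genes. EPCAM had the highest estimate at 0.19 (95% interval −0.11 to 0.49), and CDH1 followed at 0.16 (−0.05 to 0.38). The median over the 8 genes was 0.07, and without X4168_3_H it was 0.01 with 4 of 8 genes above 0. Without X4140_2_C it was 0.13.

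Parity was compared over the 3 treatments, 15 C calves with 12 H calves. At an unadjusted p under 0.05 there were 0 of 8 genes, against 2.52% of all tested genes. The lowest estimate was −0.14 for CDH17 (95% interval −0.40 to 0.11) and the highest 0.05 for LGALS4 (−0.14 to 0.24). The median was −0.04 with 2 of 8 genes above 0. It was 0.03 with 5 of 8 above 0 without X4168_3_H, and 0.02 with 5 of 8 without X4138_1_H. Without scaling for library composition it was 0.01 with 5 of 8. The direction thus depended on single calves and on the scaling. Without X4117_3_H the median was −0.09.

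The contrasts within each parity used 1 fit in which each of the 6 groups had its own mean. Among calves of cows, TRT12_C against TRT0_C gave 2 of 8 genes at an unadjusted p under 0.05, beside 9.86% of all tested genes. They were again VIL1 at 0.36 ± 0.17 (SE, edgeR adjusted p of 0.503) and CDH1 at 0.30 ± 0.14 (edgeR adjusted p of 0.484). Leaving out 1 calf at a time gave 0 genes without X4108_1_C, X4126_3_C, X4145_3_C, X4147_3_C or X4159_3_C, and up to 6 without X4158_3_C. This contrast shares its calves with TRT12 against TRT0 and is not a second test of it. The keratins KRT8 and KRT18 had the highest estimates, 0.40 and 0.40, with 95% intervals of −0.01 to 0.82 and −0.01 to 0.81.

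The estimates of TRT12_C against TRT0_C lay above 0 for 8 of 8 genes, with a median of 0.36. Here too the genes vary together, so their signs are not separate results. Leaving out any 1 calf kept 8 of 8 above 0, with medians between 0.29 and 0.46. Without TMM factors (trimmed mean of M values, a scaling for library composition) the median was 0.27 and 0 of 8 genes had an unadjusted p under 0.05. For KRT18, the TRT12_C calves held 165, 123, 131.5, 144 and 172 CPM and the TRT0_C calves 82.9, 179, 78.7, 121 and 134 CPM. The TRT0_C calf with the most KRT18 was above every TRT12_C calf, so the groups overlapped.

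Among calves of heifers, TRT12_H against TRT0_H gave 0 of 8 genes at an unadjusted p under 0.05, beside 3.56% of all tested genes. The median was 0.08 with 6 of 8 genes above 0. Without X4168_3_H it was −0.10 with 3 of 8 above 0, and without X4117_3_H it was 0.20. VIL1 was the 1 gene of 8 whose calves did not overlap between these groups, from 379 to 465 CPM against 287 to 342 CPM, beside 1.99% of all tested genes without overlap. Its log2 fold change was 0.32 ± 0.19 (SE), with a 95% interval of −0.08 to 0.72 and an edgeR adjusted p of 1.

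TRT6_H against TRT0_H gave 0 of 8 genes at an unadjusted p under 0.05, beside 3.35% of all tested genes. CDH17, the intestinal cadherin, was at 803, 782, 817 and 1093 CPM in the TRT6_H calves and at 555, 706, 746 and 735 CPM in the TRT0_H calves. The lowest TRT6_H calf was above the highest TRT0_H calf, so this was 1 gene of 8 without overlap, beside 2.3% of all tested genes. The log2 fold change of CDH17 was 0.36 ± 0.23 (SE), with a 95% interval of −0.11 to 0.83 and an edgeR adjusted p of 1. Over the 13 contrasts together, 2 of 104 combinations of gene and contrast were without overlap, beside 0.873% over all tested genes.

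The remaining contrasts within parity gave few low p values. TRT12_H against TRT6_H gave 0 of 8 genes at an unadjusted p under 0.05 (1.8% of all tested genes), with a median of −0.12 and 2 of 8 genes above 0. Without X4168_3_H the median was −0.32 with 0 of 8 above 0, and without X4117_3_H it was 0.05 with 5 of 8 above 0, so the direction turned on the latter calf. TRT6_C against TRT0_C gave 0 of 8 (1.95%), with a median of 0.11 that was 0.01 without X4140_2_C and 0.18 without X4151_2_C. TRT12_C against TRT6_C gave 1 of 8 (6.71%), which was CDH1 at 0.30 ± 0.14 (SE) with an edgeR adjusted p of 0.738. This count was 0 without X4144_2_C, X4147_3_C, X4151_2_C or X4159_3_C, and 3 without X4140_2_C or X4168_3_H. EPCAM had the highest estimate there, 0.40 with a 95% interval of −0.001 to 0.80. The median of 0.19 was 0.11 without X4151_2_C and 0.32 without X4140_2_C.

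The parities were also compared within each treatment. TRT0_C against TRT0_H gave 0 of 8 genes at an unadjusted p under 0.05 (2.52% of all tested genes) and a median of −0.12, which was −0.02 without X4138_1_H and −0.21 without X4124_1_H. TRT6_C against TRT6_H gave 0 of 8 (3.86%) and a median of −0.20, with CDH17 lowest at −0.32 (95% interval −0.77 to 0.12). Without X4151_2_C that median was −0.12, and without X4140_2_C it was −0.28 with 0 of 8 genes above 0. The count at an unadjusted p under 0.05 was 2 without X4154_2_C, and 1 without X4125_2_H or X4140_2_C. TRT12_C against TRT12_H gave 0 of 8 (2.68%) and a median of 0.13, with KRT18 highest at 0.39 (−0.04 to 0.82). Without X4168_3_H this last median was 0.33 with 3 of 8 genes at an unadjusted p under 0.05, and without X4117_3_H it was 0.02.

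Whether the effect of treatment differed with parity was tested by an interaction term. By edgeR 0 of 8 genes passed, beside 0.00717% of all tested genes, and 0 of 8 had an unadjusted p under 0.05, beside 2.67% (2 of 8 without X4168_3_H). DESeq2 also called 0 of 8, beside 0.00717%. The lowest unadjusted p of the 8 genes was 0.0837 for KRT18, with an edgeR adjusted p of 0.999. For TRT12 against TRT0 the medians were 0.36 in calves of cows and 0.08 in calves of heifers, and for TRT6 against TRT0 they were 0.11 and 0.19. A difference between the parities was not shown for any of the 8 genes.

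Sequencing lane was tested in the same way. By edgeR 0 of 8 genes passed, beside 4.19% of all tested genes, and 1 of 8, LGALS4, had an unadjusted p under 0.05, beside 17.6%. The latter count was 0 without X4128_3_H or X4151_2_C. LGALS4 averaged 567 ± 39.3 CPM in lane 1 (n = 11), 531 ± 59.7 CPM in lane 2 (n = 11) and 623 ± 124 CPM in lane 3 (n = 5). Its edgeR adjusted p was 0.187, and DESeq2 called it with an adjusted p of 0.0915, beside 6.15% of all tested genes. The other genes had edgeR adjusted p from 0.454 for CDH17 to 0.995 for KRT19.

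Beyond group means, the 8 genes varied together from calf to calf. Over the 27 calves, the 28 pairs of genes had a median Pearson r of 0.70 (log2 CPM with TMM factors), and 24 pairs were above 0.5. Among all 97196653 pairs of tested genes 3.02% were above 0.5, and the median was −0.002. All points of a correlation share the library, its depth and its scaling. The median of the 28 pairs was 0.71 with values centred within lanes and 0.69 with values centred within the 6 groups.

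**Figure D3:**
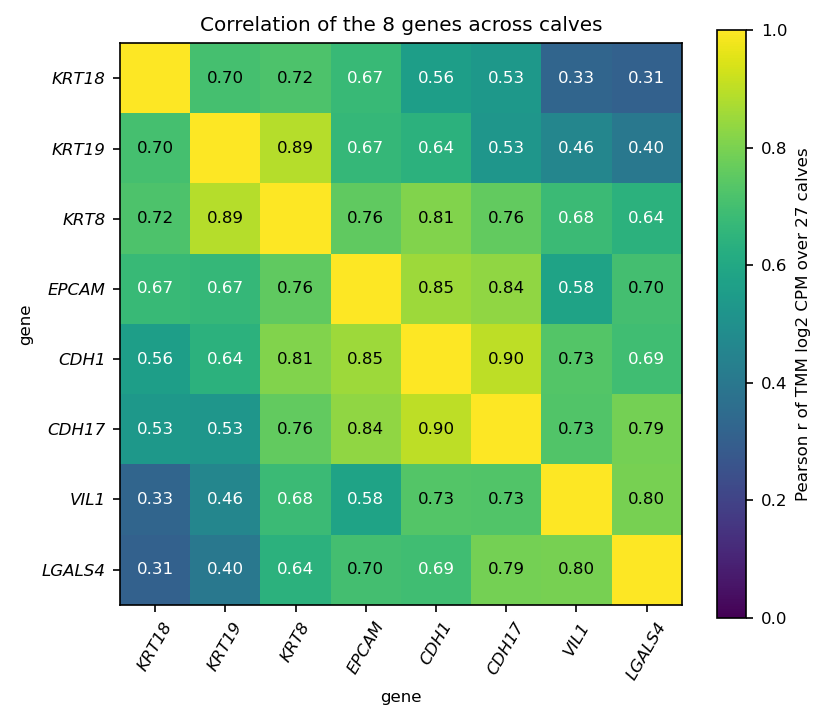
Pearson r of log2 CPM (TMM factors) between each pair of the 8 genes over 27 calves, in colour and as a number. The brightest cells join CDH1 with CDH17 (0.90) and KRT8 with KRT19 (0.89), and the darkest join KRT18 with LGALS4 (0.31) and KRT18 with VIL1 (0.33).

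The closest pair was the cadherins CDH1 and CDH17, with r = 0.90, and r = 0.88 without the 2 calves farthest from the median of CDH1. KRT8 and KRT19, a type II and a type I keratin, followed with r = 0.89, and r = 0.86 without the 2 calves farthest from the median of KRT8. EPCAM was close to both cadherins, with r = 0.85 to CDH1 and 0.84 to CDH17. KRT8 followed KRT19 more closely than KRT18, with r = 0.72 for the latter pair.

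The lowest correlations joined the type I keratins with the brush border and lectin genes. KRT18 had r = 0.31 with LGALS4 and 0.33 with VIL1, and KRT19 had r = 0.40 with LGALS4 and 0.46 with VIL1. Without the 2 calves farthest from the median of the keratin, KRT18 and LGALS4 had r = 0.16 and KRT19 and LGALS4 r = 0.22. With values centred within lanes the correlations were higher, at 0.50 for KRT18 and 0.56 for KRT19 with LGALS4, and at 0.42 and 0.53 with VIL1. The 3 pairs of keratins had a median r of 0.72, the 6 pairs among VIL1, CDH1, CDH17 and LGALS4 one of 0.76, and the 12 pairs between these sets one of 0.55. These sets were drawn after the correlations had been seen, so they are a description only.

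The counts of KRT19 and LGALS4 in the same calf show the size of that difference. Their log2 ratio ran from −0.59 to 0.66 over the calves, with an SD of 0.34. The ratio of KRT19 to KRT8 had an SD of 0.16, and that of CDH17 to CDH1 an SD of 0.18. The ratio of KRT19 to LGALS4 averaged 0.12 ± 0.26 (SD) in lane 2, −0.06 ± 0.34 in lane 1 and −0.36 ± 0.27 in lane 3.

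**Figure D4:**
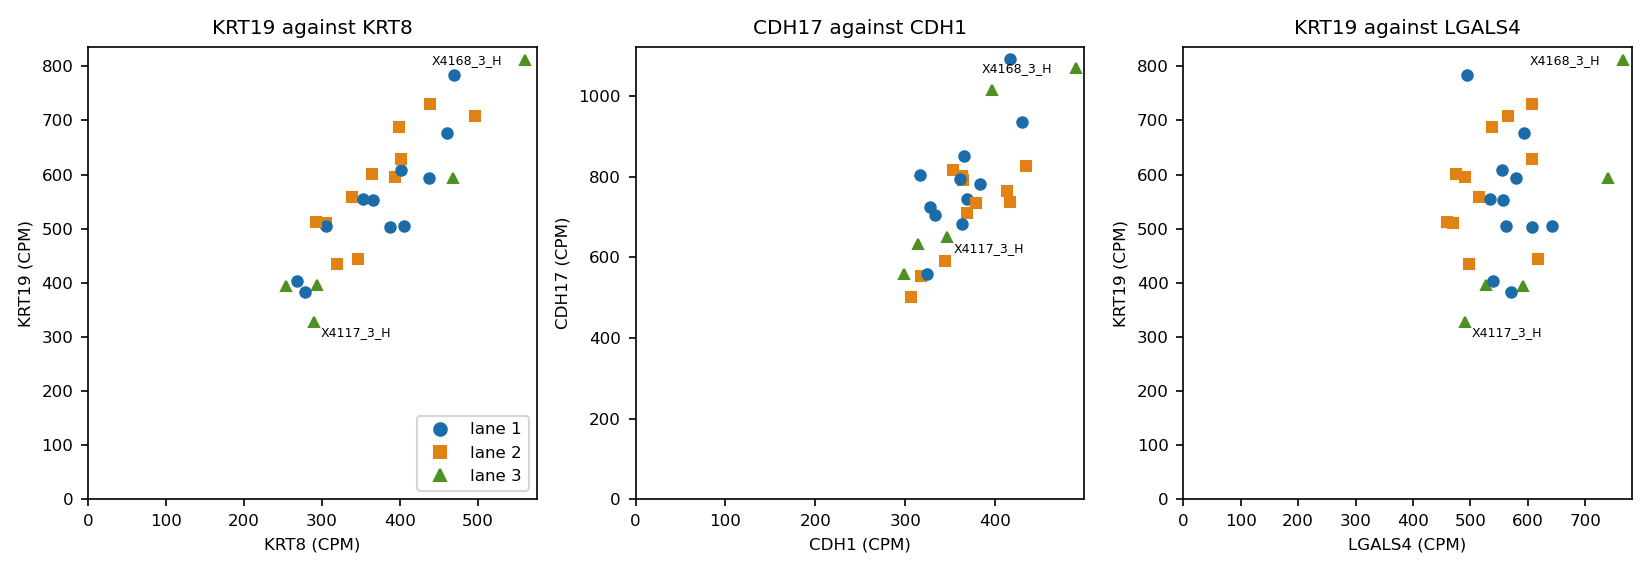
Levels (CPM, linear axes from 0) of 3 pairs of genes, 1 point per calf, with the symbol and colour giving the sequencing lane and 2 TRT12_H calves of lane 3 named. KRT19 rises closely with KRT8 and CDH17 with CDH1, whereas calves with like LGALS4 differ widely in KRT19.

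The mean of the 8 standardized profiles ordered the calves from −1.46 in X4151_2_C to 1.71 in X4168_3_H. Calves of all 3 treatments were found in both parts of this order. TRT12_H held the highest calf and also X4117_3_H, the third lowest at −1.10, both from lane 3. The sum of the 8 genes averaged 3336 ± 376 CPM in TRT0, 3585 ± 489 CPM in TRT6 and 3787 ± 624 CPM in TRT12 (n = 9 each), and the treatments overlapped. The sum was lower in calves with more counts (r = −0.39, rho = −0.49 with the total count over 27 calves), and the part of depth in the results was not tested.

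Of the 13935 other tested genes, those most like the mean profile were GDE1, a glycerophosphodiester phosphodiesterase (r = 0.93), and SPINT2, an inhibitor of serine proteases at epithelial surfaces (r = 0.91). COX8B, a subunit of cytochrome c oxidase, was at 0.89. LYPD8, a protein of the colonic epithelium that keeps flagellated bacteria off the mucosa, was also at 0.89, and so was CRIP1, a cysteine-rich intestinal protein. SUCLG1, GNB1, IMPAD1, the desmosomal protein PERP and the unnamed ENSBTAG00000002591 were between 0.87 and 0.88. At the other end were ENSBTAG00000020281 and MACF1, a linker of microtubules and actin, both at −0.86, and MYCBP2, a ubiquitin ligase, at −0.84.

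Each gene also had its own closest neighbour. EPCAM was most like DSP, the desmosomal plaque protein desmoplakin (r = 0.90), and CDH17 most like F11R, the tight junction protein JAM-A (r = 0.90). CDH1 was most like LYPD8 (r = 0.92) and KRT8 most like GDE1 (r = 0.93). VIL1 was most like MAL2, a protein of apical transport (r = 0.86), KRT19 most like SPINT2 (r = 0.85), KRT18 most like the calcium pump ATP2A3 (r = 0.84) and LGALS4 most like OCIAD2 (r = 0.86).

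Lists of genes that work with the 8 genes were set beside them, with symbols known for only part of each list. Of 17 adhesion partners of the cadherins and EpCAM, 10 were paired with an identifier. All 10 had r above 0.5 with the mean profile, with a median of 0.79, among them DSP (0.83) and CTNNB1, beta-catenin, which binds E-cadherin (0.86). By edgeR 0 of 10 were called in any contrast. In TRT12 against TRT0, where 9.37% of all tested genes had an unadjusted p under 0.05, it was under 0.05 for 2 of 10, namely the tight junction gene CLDN7 (log2 fold change 0.31, edgeR adjusted p of 0.434) and the desmosomal cadherin DSC2 (0.33, edgeR adjusted p of 0.421). These and the genes named for a low p below were named after their values were seen.

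Of 15 brush border partners of villin, 10 were paired. Their median r was 0.65 and 8 were above 0.5, among them CDHR2, a protocadherin that links microvilli (0.66). MYO7B, the myosin of the same link and the most highly counted of the list, was at −0.07, and USH1C at 0.24. By edgeR 0 of 10 were called, and 3 of 10 had an unadjusted p under 0.05 in TRT12 against TRT0 (9.37% of all tested genes), namely EZR, the membrane linker ezrin (0.25), ANKS4B (0.33) and the scaffold SLC9A3R1 (0.42), with edgeR adjusted p of 0.529, 0.512 and 0.434.

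Of 14 epithelial transcription and splicing regulators, 8 were paired, and 6 had r above 0.5, with a median of 0.64. KLF5, a factor of the crypt epithelium, was at 0.78 and ELF3 at 0.49, and the splicing factor ESRP1 was lowest at 0.21. By edgeR 0 of 8 were called. At an unadjusted p under 0.05 there was 1 gene of 8 in TRT12 against TRT0 (9.37% of all tested genes), EHF (0.19, edgeR adjusted p of 0.529).

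Among 3 paired galectins, LGALS3 followed the epithelial profile (r = 0.84) and LGALS9 (0.40) and LGALS1 (0.09) less so. LGALS3 was the 1 gene of 3 with an unadjusted p under 0.05 (9.37% of all tested genes), with a log2 fold change of 0.34 between TRT12 and TRT0, with an edgeR adjusted p of 0.494. Of 8 other keratins 3 were paired, and KRT10, KRT23 and KRT80 averaged 2.24, 0.742 and 3.62 CPM in these libraries. Only KRT10 and KRT80 passed the filter, with r of −0.13 and −0.19. CDH11, the single paired cadherin of the remaining list, had r = 0.13. By edgeR 0 genes of these lists were called.

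**Figure D5:**
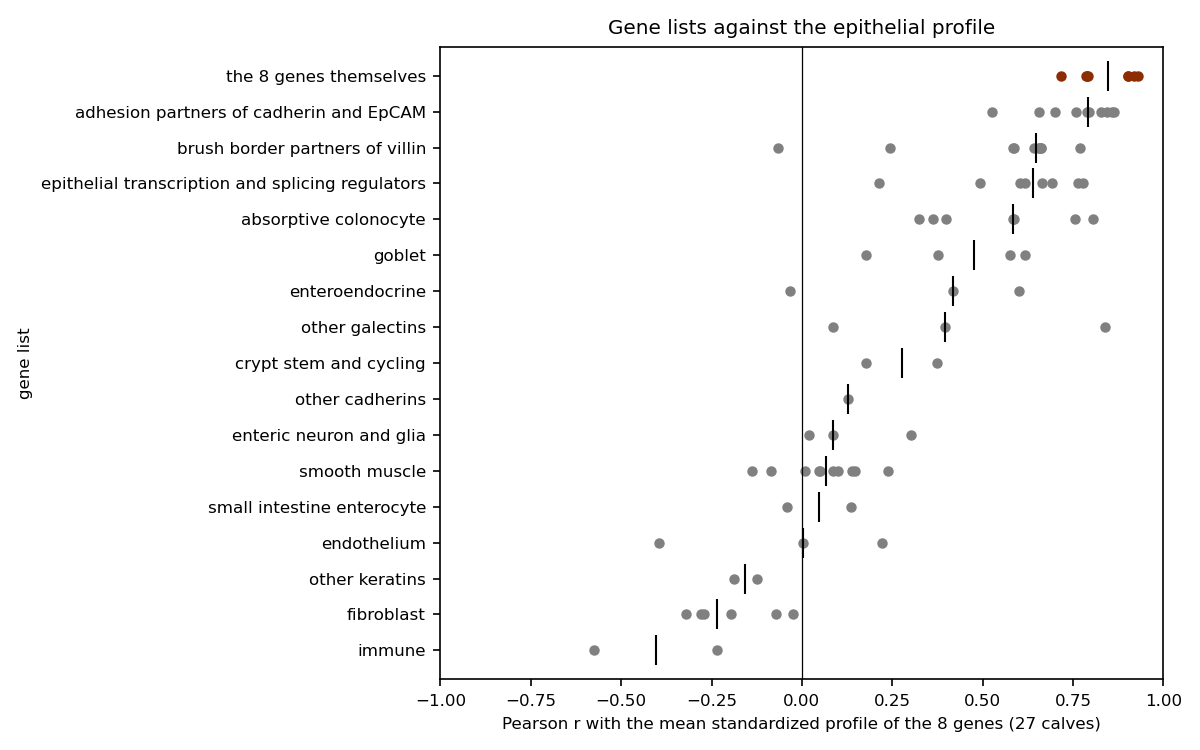
Pearson r of each paired and tested gene of a list (point) with the mean standardized profile of the 8 genes over 27 calves, and the median of the list (black bar). The 8 genes are part of the profile themselves. Adhesion partners lie highest (median 0.79), smooth muscle genes lie around 0 (median 0.07) and fibroblast and immune genes below it.

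Marker genes of the cells of the wall were read in the same way. Of the absorptive colonocyte markers, 7 of 11 were paired, with a median r of 0.58. FABP1, a fatty acid binding protein, was closest (0.81), followed by GUCA2A, which encodes guanylin (0.76). In TRT12 against TRT0 the carbonic anhydrases CA1 and CA2 and FABP1, 3 of 7 genes, had an unadjusted p under 0.05 (9.37% of all tested genes), with log2 fold changes of 1.33, 0.65 and 0.47 and edgeR adjusted p of 0.410, 0.460 and 0.434. Goblet cell markers (4 of 8 paired) had a median r of 0.48, with SPINK4 at 0.58 and AGR2 at 0.18. In TRT12 against TRT0, 1 of 4 had an unadjusted p under 0.05, CLCA1, which had a log2 fold change of 0.54 with an edgeR adjusted p of 0.460.

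Enteroendocrine markers (3 of 6 paired) had a median of 0.42, with CHGA at 0.60 and TPH1 at −0.03. The crypt genes OLFM4 and TOP2A (2 of 6 paired) were at 0.18 and 0.37. The small intestine markers APOA4 and APOC3 (2 of 5 paired) averaged 4.79 and 4.88 CPM and were at 0.14 and −0.04. Among these markers of colon epithelial cells, the 8 genes varied least with AGR2, OLFM4 and TPH1.

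Markers of cells outside the epithelium had lower or negative correlations with the profile. The 10 smooth muscle genes had a median r of 0.07, between −0.14 for SYNPO2 and 0.24 for TAGLN, with MYH11 at 0.05 and ACTG2 at 0.15. The 6 fibroblast genes had a median of −0.23, with COL3A1 at −0.27 and COL1A1 at −0.28. The endothelial genes (3 of 6 paired) had a median of 0.003, with PECAM1 at −0.40, VWF at 0.003 and KDR at 0.22. Of the immune markers 2 of 9 were paired, with the leukocyte gene PTPRC at −0.58 and the macrophage gene CSF1R at −0.23. UCHL1 of the enteric nervous system was at 0.30. By edgeR 0 of these markers were called in any contrast of treatment or parity, and TOP2A, LMOD1 and COL1A1 passed in the lane test.

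The summed level of the 8 genes was set against the summed level of the smooth muscle genes, with r = −0.18 and rho = −0.21 over 27 calves on the log2 scale. Without the 2 calves farthest from the median of the muscle sum, r was −0.23. Within lane 1 r was −0.03 and within lane 2 it was −0.60 (11 calves each), and lane 3 held too few calves. LGALS4 was the most negative of the 8 genes at r = −0.48 and KRT19 the most positive at 0.23. Smooth muscle sums ran from 7961 to 14994 CPM in TRT0, from 8138 to 15903 CPM in TRT6 and from 8643 to 16062 CPM in TRT12, and the part of tissue makeup in the estimates above was not tested.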

How the data were processed

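Total RNA from the colon was made into libraries with a kit that does not mark strand, and paired reads were sequenced. The authors aligned the reads to UMD3.1 with TopHat2 2.1.1, sorted them with SAMtools 1.4 and counted them per Ensembl gene with HTSeq. They deposited raw counts for 27 calves, with no normalization. The median total of 2215402 counts per calf is far below the number of reads per sample that the paper reports. The reason for this gap was not examined. Reads that fit several genes were left out by the authors, so KRT8 and KRT18, whose family has processed copies in mammals, may be undercounted. In RefSeq's annotation of another assembly none of the 8 genes overlaps another gene, and no coordinates are given here.

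Genes with at least 1 CPM in at least 5 of 9 calves of each treatment were kept. Counts were scaled with TMM factors (0.887 to 1.15) and tested with edgeR 4.0.16 (quasi-likelihood) in R 4.3.3, with terms for treatment and parity, or a mean for each of 6 groups. Correlations used log2 CPM with a prior count of 2 in Python 3.11.15. Alternatives were DESeq2 1.42.0, a likelihood ratio test, no TMM factors, other filters, lane as a term, fits on only the groups compared, a table lacking its 10 most counted genes (37.6% of counts), an adjusted p of 0.05 and each calf left out. The scripts were tested on simulated data. Symbols came from the study's gene tables, which name 4046 identifiers, mostly well expressed genes. The genes named were the 8 members, of each list the 2 with the most counts and any called, and the genes with the highest and lowest correlation. The 8 genes and the lists were chosen with earlier results of these data known. Each calf is 1 library. The intervals are for the estimated difference between groups, with the spread between calves as its error, and not for the range of single calves.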

Additional observations from a re-analysis of the deposited data

Results flagged for a closer look

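In groups of 4 or 5 calves, a calf was marked when its gap to the nearest other calf took most of the range of its group (Dixon's test at the 95% level). Chance marks about 1 in 20 groups when values are normally distributed, and 7 of the 48 combinations of gene and group were marked. The combinations are not independent, because the genes vary together. The share marked among all tested genes was not computed, so an excess particular to these genes was not tested. X4168_3_H, a TRT12_H calf, accounted for 4 of the 7 marks. It held 561 CPM of KRT8 against 291 to 319.5 CPM in the other 3 calves, and 159 CPM of KRT18 against 94.0 to 101 CPM. The same calf held 465 CPM of VIL1 against 379 to 393 CPM, and 489.7 CPM of CDH1 against 347 to 368 CPM. The 4 genes share 1 library and are not separate events.

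In TRT6_H, X4125_2_H was low for KRT19, with 443 CPM against 593 to 608 CPM, and X4146_2_H was high for CDH17, with 1093 CPM against 782 to 817 CPM. In TRT6_C, X4154_2_C, the library with the fewest counts, was high for CDH1, with 397 CPM against 306 to 327.5 CPM. No difference between the parities in the effect of treatment passed the interaction test for any of the 8 genes.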

How the results depend on the processing

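For the 15 counts of called genes, 533 of 536 alternatives gave the same count of 0. DESeq2 gave a count of 1 in TRT12 against TRT0, which was VIL1 with a log2 fold change of 0.34 and an adjusted p of 0.0910, among 51 genes called in all. Over the alternatives other than leaving out a calf, the adjusted p of VIL1 ran from 0.0910 to 0.549, and its log2 fold change from 0.31 to 0.35. In the lane test DESeq2 gave a count of 1, which was LGALS4, with 858 genes called in all. Leaving out 1 calf at a time gave counts of 0 to 1 in the lane test, and the count of 1 was LGALS4 without X4158_3_C (adjusted p of 0.0839). The cause was not tested. Leaving out 1 calf at a time left the count at 0 in the other 14 tests. The median r of the 28 pairs ran from 0.59 (log2 of CPM + 1 without TMM factors) to 0.71 over the other settings. The largest shift of the median of all genes under a setting was 0.0954 on the log2 scale, in TRT0_C against TRT0_H without TMM factors.

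No paired analysis applied, because the calves were separate animals, each assigned at random to a single treatment. Groups of 4 or 5 calves leave wide intervals, and a p that misses the threshold does not show that groups were alike.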
